A study of Mus musculus with 8 samples.

Results

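Sterol synthesis and its control by SREBP2 were followed through 29 genes of mouse bone marrow-derived macrophages. The genes were taken by name from the 55376 genes of the counts table, with earlier results of these data known. Their counts, set below beside the shares of all tested genes, are therefore descriptive and not independent support. The genes comprise 19 enzymes that lead from acetyl-CoA to cholesterol, with the geranylgeranyl branch, and 10 genes of control, transport and related steps. All 29 were in the table, and all 29 were among the 13721 genes left by a filter on low counts. RNA was sequenced in 8 libraries, numbered 1 and 2 in each of 4 groups: DNMT3A-HET with IL-6, DNMT3A-HET control, WT with IL-6 and WT control. Per the labels, the marrow came from 3 mice of each genotype, male and 13 weeks old, and every culture received M-CSF at 50 ng/mL. IL-6 was given at 10 ng/mL from day 6 for 2 days, and RNA of all groups was taken on day 8. How the DNMT3A allele was made is not in the labels, nor is the mouse behind each library or any pooling. The p-values therefore cover only library-to-library spread, part of which may be technical. If a number marks a mouse, the control and IL-6 libraries that bear it are not independent.

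Cells make cholesterol from acetyl-CoA through mevalonate, isoprenoid diphosphates, squalene and lanosterol. When sterols in the endoplasmic reticulum fall, SCAP escorts SREBP2 to the Golgi, where a pair of proteases cut it and release a fragment that raises the transcription of nearly every enzyme of the pathway. INSIG proteins hold SCAP back when sterols are ample. In macrophages the pathway stands opposite LXR, the oxysterol receptor that drives cholesterol export, and it is known to respond to interferon and other inflammatory signals. Transcript levels were measured here, not SREBP2 cleavage, enzyme activity or sterols.

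SREBP2 acts at sterol regulatory elements near the start of its target genes, often beside a CCAAT box bound by NF-Y. The RefSeq promoter windows (GRCm38.p6, 250 bases before to 50 bases after each start) covered 25 of the 29 genes. The element TCACNCCA was searched on both strands, and 3 of the 25 genes held it, against 4.97% of all 27025 genes with a window. Its longer form TCACNCCAC, which contains the first motif, was in 1 of the 25, Hmgcs1, against 1.44% of all genes. CCAAT was in 20 of the 25, against 41.1% of all genes, and GGGCGG, the core letters of a GC box, was in 20 of the 25, against 38.2%. CACGTG was in 6 of the 25, against 8.09%. A match is a description of letters and not a bound site. The 3 windows with TCACNCCA are shown because they hold the element of the factor that controls these genes, the gene of SREBP2 among them. Capitals mark TCACNCCA and CCAAT, or their reverse complements. The element begins 177 bases before the start of Msmo1, 137 bases before that of Hmgcs1 and 162 bases before that of Srebf2. The Hmgcs1 and Srebf2 windows lie upstream of the first exon, and the Msmo1 window, cut to 30 bases, lies in the untranslated first exon of the longest Msmo1 transcript in the GENCODE M21 annotation. In mm10, as the counts table places them, Msmo1 lies on the minus strand at chr8:64718139-64733792, Hmgcs1 on the plus strand at chr13:119690379-119708260 and Srebf2 on the plus strand at chr15:82147181-82205379.
Msmo1, chr8:64733734-64733763, minus strand: cactattcTCACTCCAtccgcgcagCCAAT
Hmgcs1, chr13:119690169-119690266, plus strand: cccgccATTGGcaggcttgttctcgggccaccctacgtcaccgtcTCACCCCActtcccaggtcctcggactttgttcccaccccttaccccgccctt
Srebf2, chr15:82147062-82147159, plus strand: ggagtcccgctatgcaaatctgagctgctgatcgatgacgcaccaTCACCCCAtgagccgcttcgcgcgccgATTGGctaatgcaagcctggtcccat

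Total counts lay between 18926641 and 24881197 in 7 libraries, and HET IL-6 library 2 had 50137897. Levels are given as CPM, a gene's counts scaled to the library's counts over the tested genes, with TMM factors. Dnmt3a had 140.1 and 213 CPM in HET IL-6, 166 and 248 CPM in HET control, 175 and 183 CPM in WT IL-6 and 275 and 244 CPM in WT control libraries. Library 1 of HET was the lower one in both treatments, and library 2 of HET lay above both WT libraries with IL-6 and between them in control. HET against WT in Dnmt3a did not pass the edgeR test in IL-6 (log2 fold change -0.02 ± 0.25, SE, adjusted p = 0.972) or in control (-0.32 ± 0.25, adjusted p = 0.506). Since the labels do not give the allele, its transcript does not check the genotype, and HET stands throughout for the libraries labelled so. All 8 macrophage markers passed the filter, with a summed level of 11898 to 14141 CPM over the 8 libraries. The markers of 9 other cell types each summed to at most 55.2 CPM, and Pax5, Cd3e, Cd3g, Fcer1a, Tpsb2, Prss34, Lum, Emcn, Plin1, Lep, Cfd and Cidec were at 0 everywhere. The bulk samples cannot tell fewer cells of a type from less RNA per cell.

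With IL-6 most of the sterol genes fell in WT macrophages, and none passed the edgeR test as lower in HET macrophages. In HET, 4 of the 29 rose with IL-6 (Pmvk, Tm7sf2, Tmem97 and Rdh11) and 0 fell, against 8.87% of all tested genes higher and 9.41% lower. In WT, 22 of the 29 fell with IL-6 and 1, Insig2, rose, against 10.4% of all tested genes lower and 7.91% higher. The median log2 fold change of the 29 was 0.20 in HET and -0.90 in WT, where the medians of all tested genes were 0.01 and -0.01. In HET both IL-6 libraries lay above both control libraries in 17 of the 29, against 32.8% of all tested genes, and below them in 2, against 32.0%. In WT they lay above in 2 of the 29, against 24.1%, and below in 23, against 28.4%. A call is an adjusted p under 0.05 in edgeR's quasi-likelihood test, with Benjamini-Hochberg adjustment over all tested genes. Log2 fold changes carry their SE and mean levels their SD (n = 2). At an unadjusted p under 0.05, 12 were higher and 0 lower with IL-6 in HET, and DESeq2 called 5 higher and 0 lower there. The HET count of 4 was 0 without HET control library 1, 1 without either HET IL-6 library and 8 without either WT control library.

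**Figure D1:**
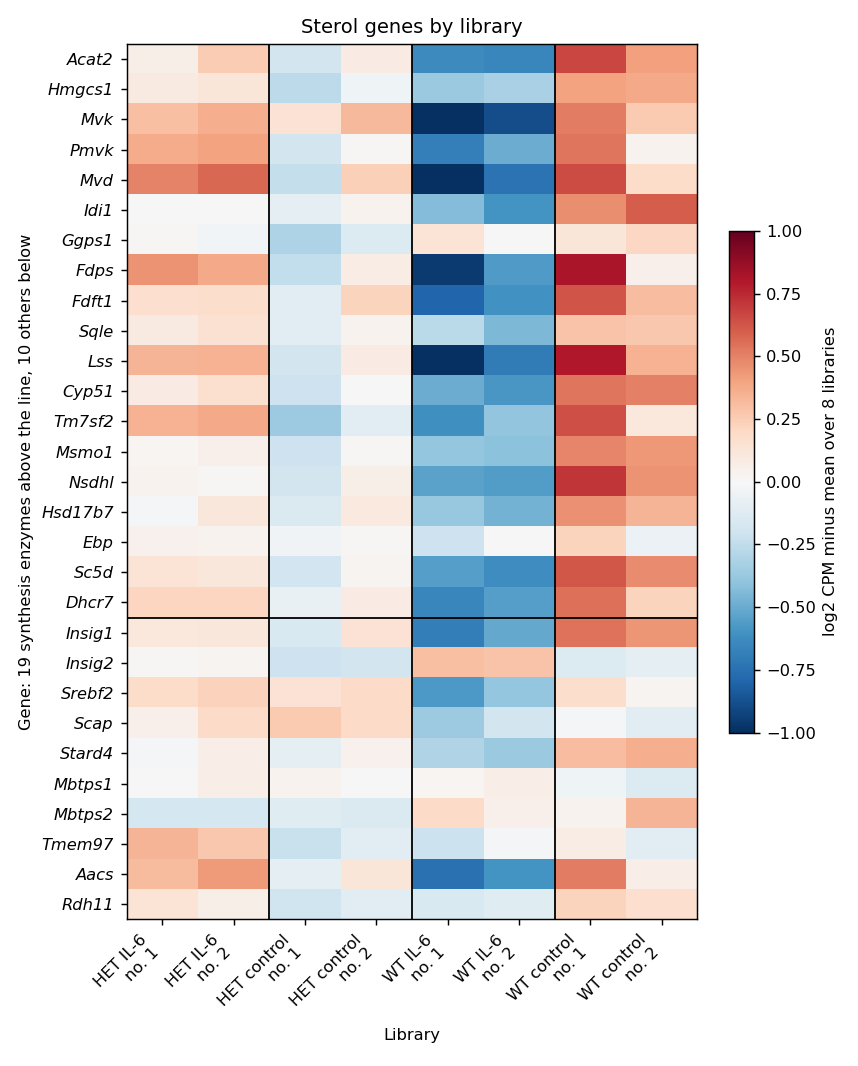
Level of the 29 genes (rows) in the 8 libraries (columns), as log2 CPM minus the gene's mean over the 8 libraries; red is above and blue below that mean. The median deviation of the 29 genes was 0.09 and 0.15 in HET IL-6, -0.18 and 0.03 in HET control, -0.50 and -0.47 in WT IL-6 and 0.49 and 0.26 in WT control libraries.

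Summed over the 19 enzymes, the level was 1163 and 1192 CPM in HET IL-6, 945 and 1094 CPM in HET control, 750.0 and 761 CPM in WT IL-6 and 1513 and 1341 CPM in WT control libraries. The 4 pairs of libraries did not overlap in this sum. WT control was highest and WT IL-6 lowest, with both HET groups between them. The mean levels stood in the order WT control, HET IL-6, HET control, WT IL-6 in 18 of the 29 genes. How many of all tested genes share that order was not counted, so this count has no background. Both WT IL-6 libraries were the lowest of the 8 in 22 of the 29 genes, against 14.0% of all tested genes, and both WT control libraries were the highest in 15 of the 29, against 6.88%. HET control library 1 was below library 2 in 19 of the 19 enzymes (median log2 difference -0.22), and WT control library 1 was above library 2 in 17 of the 19 (median 0.26). Neutrophil markers, of which 3 of 8 passed the filter, summed to 1.57 and 1.40 CPM in HET IL-6, 2.89 and 2.64 CPM in HET control, 2.48 and 2.57 CPM in WT IL-6 and 1.31 and 1.28 CPM in WT control libraries. They were thus higher in the groups where the enzymes were lower within each genotype, at levels of a few CPM, and their part in the result was not tested. Endothelial markers, of which 2 of 5 passed, summed to 51.2 to 55.2 CPM with IL-6 and 27.6 to 34.3 CPM in control libraries of both genotypes, and their part in the result was not tested.

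In the mevalonate steps, 6 of 6 enzymes fell with IL-6 in WT, against 10.4% of all tested genes. In HET, 1 of 6, Pmvk, rose, against 8.87%. Hmgcs1, the cytosolic HMG-CoA synthase, had 107 and 109.7 CPM in HET IL-6, 84.1 and 97.9 CPM in HET control, 78.0 and 80.6 CPM in WT IL-6 and 133 and 131 CPM in WT control libraries. Mvk, mevalonate kinase, had 26.0 and 27.1 CPM in HET IL-6, 23.3 and 26.4 CPM in HET control, 10.4 and 11.4 CPM in WT IL-6 and 30.0 and 25.3 CPM in WT control libraries. In both genes the WT IL-6 libraries were the lowest of the 8. The log2 fold change of Hmgcs1 with IL-6 was 0.25 ± 0.08 in HET (adjusted p = 0.0529) and -0.73 ± 0.09 in WT (adjusted p = 3.40e-05). For Mvk the log2 fold changes were 0.10 ± 0.11 in HET (adjusted p = 0.599) and -1.35 ± 0.12 in WT (adjusted p = 2.37e-06). Mvk in WT IL-6 macrophages stood at 39.4% of its mean in WT control, and in HET IL-6 macrophages at 96.1%.

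Mvd, the decarboxylase that makes isopentenyl diphosphate, had 48.8 and 51.4 CPM in HET IL-6, 29.4 and 40.9 CPM in HET control, 15.4 and 20.7 CPM in WT IL-6 and 54.5 and 39.2 CPM in WT control libraries. Its libraries 1 and 2 of WT control were farther apart than either HET IL-6 or WT IL-6 pair, yet no WT IL-6 library reached a WT control library. Pmvk, phosphomevalonate kinase, had 35.1 and 35.9 CPM in HET IL-6, 23.9 and 27.3 CPM in HET control, 16.9 and 19.2 CPM in WT IL-6 and 39.2 and 27.8 CPM in WT control libraries. The HET IL-6 libraries lay above both HET control libraries, and Pmvk rose by 0.47 ± 0.13 in HET (adjusted p = 0.0256) and fell in WT (-0.90 ± 0.14, adjusted p = 4.39e-04). The HET call of Pmvk was lost without any single HET library, with adjusted p between 0.0524 and 0.23.

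Acat2, the cytosolic thiolase that opens the pathway, averaged 37.2 ± 3.47 CPM in HET IL-6, 32.3 ± 4.09 CPM in HET control, 21.3 ± 0.169 CPM in WT IL-6 and 48.6 ± 6.08 CPM in WT control macrophages. It has a closely related neighbour, Acat3, and is uncertain for that reason. Idi1, the isomerase of isopentenyl diphosphate, had 26.8 and 26.9 CPM in HET IL-6, 25.2 and 27.4 CPM in HET control, 19.8 and 17.7 CPM in WT IL-6 and 37.0 and 40.8 CPM in WT control libraries. Its HET IL-6 and HET control libraries overlapped, at a log2 fold change of 0.03 ± 0.10 (adjusted p = 0.881), while in WT Idi1 fell by 1.05 ± 0.10 (adjusted p = 5.44e-06). The WT change of Acat2 was -1.19 ± 0.12 (adjusted p = 7.15e-06).

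The isoprenoid branch point held both a gene that fell and one that did not. Fdps, farnesyl diphosphate synthase, had 26.6 and 25.3 CPM in HET IL-6, 16.4 and 20.5 CPM in HET control, 10.0 and 13.1 CPM in WT IL-6 and 34.3 and 20.1 CPM in WT control libraries. WT control library 1 stood apart from library 2, which lay within the range of the HET libraries. Fdps fell by 1.24 ± 0.23 in WT (adjusted p = 0.00438), a call lost without WT IL-6 library 1 (adjusted p = 0.13). Exons of another annotated gene cover 26.7% of its exon bases, and it is uncertain for that reason. Ggps1, which makes geranylgeranyl diphosphate for protein prenylation, had 21.3 and 20.7 CPM in HET IL-6, 17.1 and 19.2 CPM in HET control, 23.2 and 21.1 CPM in WT IL-6 and 23.0 and 24.4 CPM in WT control libraries. Its WT IL-6 and WT control libraries overlapped, and neither IL-6 response passed the test (0.21 ± 0.10 in HET, adjusted p = 0.193; -0.10 ± 0.10 in WT, adjusted p = 0.583).

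From squalene to cholesterol, 10 of 11 enzymes fell with IL-6 in WT, against 10.4% of all tested genes. In HET, 1 of 11, Tm7sf2, rose, which is near the share of all tested genes, 8.87%. Fdft1, squalene synthase and the first step committed to sterols, averaged 52.3 ± 0.126 CPM in HET IL-6, 48.6 ± 7.69 CPM in HET control, 28.6 ± 2.61 CPM in WT IL-6 and 64.5 ± 10.1 CPM in WT control macrophages. Sqle, squalene epoxidase, had 136 and 142 CPM in HET IL-6, 119 and 131 CPM in HET control, 106 and 93.6 CPM in WT IL-6 and 156 and 154 CPM in WT control libraries. Lss, which closes the ring to lanosterol, had 95.0 and 95.4 CPM in HET IL-6, 66.1 and 79.4 CPM in HET control, 36.9 and 46.2 CPM in WT IL-6 and 131 and 95.7 CPM in WT control libraries. Lss had the most negative WT response of the 29 genes, -1.46 ± 0.15 (adjusted p = 2.40e-05), and its WT IL-6 mean was 36.6% of WT control. In HET, Lss was at 0.39 ± 0.14 with IL-6, which did not pass the test (adjusted p = 0.0847), although both HET IL-6 libraries lay above both HET control libraries. Sqle responded less on the log2 scale, with 0.15 ± 0.08 in HET (adjusted p = 0.247) and -0.63 ± 0.09 in WT (adjusted p = 1.25e-04), and stood at 64.4% of WT control in WT IL-6 macrophages. Fdft1 fell by 1.18 ± 0.13 in WT (adjusted p = 1.45e-05), and is uncertain because its exons overlap those of Ctsb over 18.8% of their bases.

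Cyp51, the lanosterol demethylase, had 112 and 118 CPM in HET IL-6, 91.5 and 106 CPM in HET control, 74.9 and 70.5 CPM in WT IL-6 and 153 and 150.0 CPM in WT control libraries. The 4 groups did not overlap. Cyp51 fell by 1.06 ± 0.09 in WT (adjusted p = 1.27e-06) and was at 0.23 ± 0.09 in HET (adjusted p = 0.0877). Tm7sf2, a sterol reductase that acts after Cyp51, had 12.9 and 13.2 CPM in HET IL-6, 7.87 and 9.41 CPM in HET control, 6.62 and 7.72 CPM in WT IL-6 and 15.8 and 10.9 CPM in WT control libraries. Its HET IL-6 libraries lay within the range of the WT control libraries. It rose by 0.60 ± 0.16 in HET (adjusted p = 0.0202) and fell by 0.91 ± 0.17 in WT (adjusted p = 0.00188). The HET call was lost without HET control library 1, HET IL-6 library 1 or HET IL-6 library 2 (adjusted p = 0.204, 0.0723 and 0.121).

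The enzymes that remove methyl groups from the sterol ring also fell in WT. Msmo1, the methyl sterol oxidase, averaged 162 ± 3.29 CPM in HET IL-6, 148 ± 15.5 CPM in HET control, 120.2 ± 1.42 CPM in WT IL-6 and 217 ± 5.95 CPM in WT control macrophages. Nsdhl, the decarboxylating dehydrogenase, averaged 44.0 ± 0.508 CPM in HET IL-6, 41.6 ± 4.89 CPM in HET control, 29.6 ± 0.307 CPM in WT IL-6 and 64.9 ± 8.39 CPM in WT control macrophages. Hsd17b7, the reductase that completes this step, averaged 38.9 ± 2.37 CPM in HET IL-6, 37.2 ± 4.39 CPM in HET control, 28.0 ± 1.33 CPM in WT IL-6 and 49.7 ± 2.83 CPM in WT control macrophages. Their WT responses were -0.85 ± 0.08, -1.13 ± 0.11 and -0.83 ± 0.10 (adjusted p = 7.03e-06, 4.66e-06 and 5.67e-05), and no HET response of these genes passed the test (adjusted p = 0.342, 0.665 and 0.711).

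Of the last steps, Sc5d, a desaturase, averaged 63.6 ± 0.593 CPM in HET IL-6, 55.2 ± 5.97 CPM in HET control, 38.8 ± 1.28 CPM in WT IL-6 and 85.1 ± 6.25 CPM in WT control macrophages. Dhcr7, a reductase of the final step, had 67.2 and 67.2 CPM in HET IL-6, 55.0 and 61.2 CPM in HET control, 36.8 and 39.6 CPM in WT IL-6 and 84.6 and 67.4 CPM in WT control libraries. Both fell with IL-6 in WT, Sc5d to 45.6% of its WT control mean (adjusted p = 1.43e-06) and Dhcr7 to 50.2% (adjusted p = 1.60e-05). Ebp, the sterol isomerase, was the exception, with 56.0 and 55.5 CPM in HET IL-6, 52.9 and 54.7 CPM in HET control, 47.0 and 54.0 CPM in WT IL-6 and 63.2 and 52.0 CPM in WT control libraries. WT IL-6 library 2 lay above WT control library 2, and neither response of Ebp passed the test (0.05 ± 0.10 in HET, adjusted p = 0.792; -0.19 ± 0.10 in WT, adjusted p = 0.224).

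**Figure D2:**
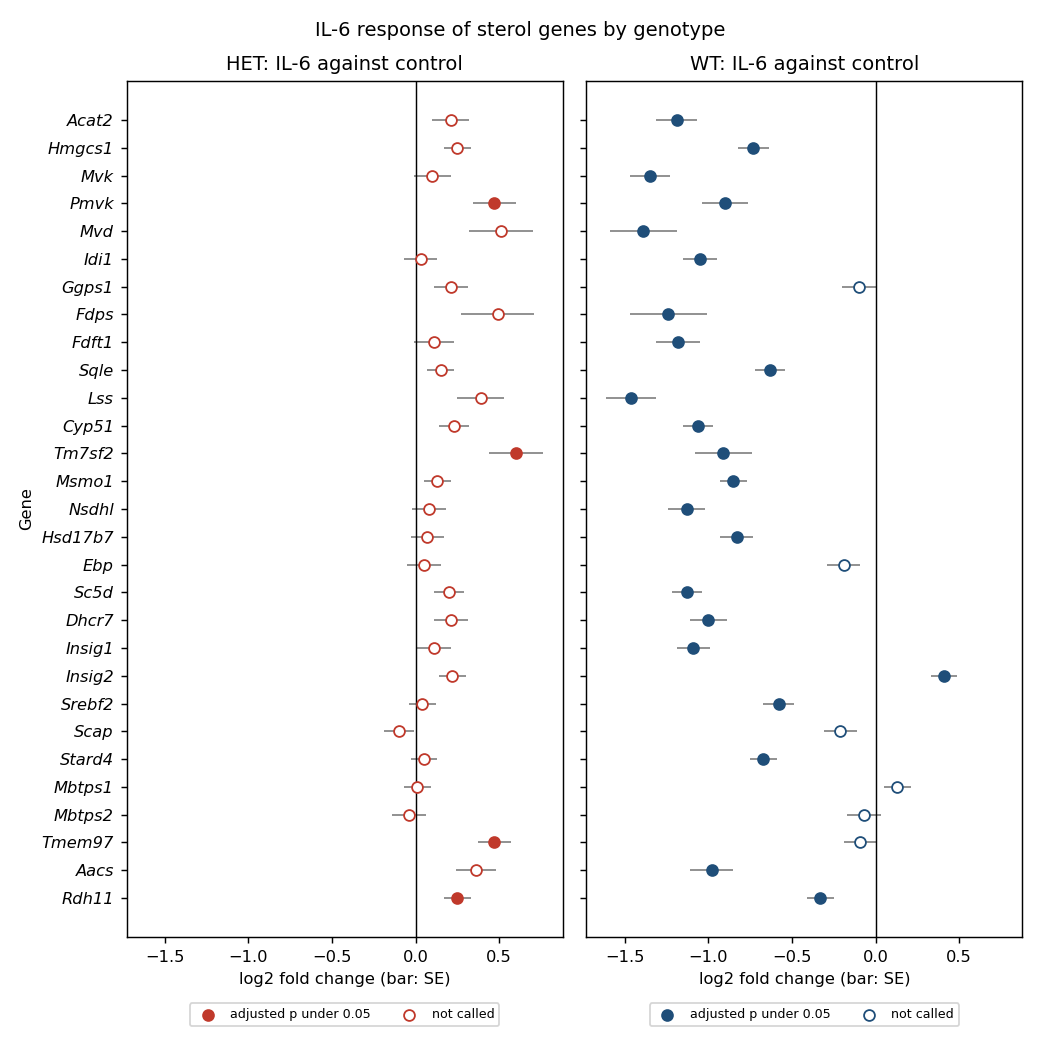
Log2 fold change with IL-6 against control (points, bars are SE) for the 29 genes in HET (left) and WT (right); filled points passed adjusted p under 0.05. In HET 4 points are filled, all right of 0, and in WT 22 filled points lie left of 0 and 1 right of it.

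Among the control genes, the transcripts of SREBP2 and INSIG1 moved with the enzymes in WT, and those of SCAP and the proteases did not pass the test. Insig1, itself a strong SREBP target, had 243 and 244 CPM in HET IL-6, 203 and 249 CPM in HET control, 139.9 and 158 CPM in WT IL-6 and 328 and 306 CPM in WT control libraries. Both WT IL-6 libraries were the lowest of the 8, and HET IL-6 and HET control overlapped. Insig1 fell by 1.09 ± 0.10 in WT (adjusted p = 3.33e-06) and was at 0.11 ± 0.10 in HET (adjusted p = 0.512). Srebf2, the gene of SREBP2, had 314 and 325 CPM in HET IL-6, 305 and 316 CPM in HET control, 186 and 211 CPM in WT IL-6 and 313 and 282 CPM in WT control libraries. The WT IL-6 libraries alone lay apart, below the other 6, which spanned 282 to 325 CPM. Srebf2 fell by 0.58 ± 0.09 in WT (adjusted p = 2.44e-04) and was at 0.04 ± 0.08 in HET (adjusted p = 0.798).

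Insig2, the second SCAP anchor, went the other way, with 34.3 and 34.7 CPM in HET IL-6, 29.4 and 30.0 CPM in HET control, 42.0 and 41.4 CPM in WT IL-6 and 30.9 and 31.7 CPM in WT control libraries. The WT IL-6 libraries were the highest of the 8. Insig2 rose by 0.41 ± 0.08 with IL-6 in WT (adjusted p = 0.00302) and was at 0.22 ± 0.08 in HET (adjusted p = 0.0898). Scap, the escort of SREBPs, had 44.0 and 48.5 CPM in HET IL-6, 50.9 and 48.5 CPM in HET control, 33.0 and 37.4 CPM in WT IL-6 and 41.9 and 39.3 CPM in WT control libraries. Its WT IL-6 libraries lay below the WT control libraries, and neither response passed the test (-0.10 ± 0.09 in HET, adjusted p = 0.508; -0.21 ± 0.10 in WT, adjusted p = 0.154). Mbtps1, the protease of the first cut, averaged 118 ± 4.46 CPM in HET IL-6, 117 ± 1.75 CPM in HET control, 119 ± 2.44 CPM in WT IL-6 and 109 ± 5.32 CPM in WT control macrophages. Mbtps2, the protease of the second cut, had 54.3 and 54.5 CPM in HET IL-6, 56.6 and 55.6 CPM in HET control, 70.1 and 63.7 CPM in WT IL-6 and 62.8 and 77.8 CPM in WT control libraries. The HET libraries of Mbtps2 were the lowest of the 8 in both treatments, and neither IL-6 response passed the test in Mbtps1 (adjusted p = 0.93 in HET and 0.268 in WT) or in Mbtps2 (0.823 in HET and 0.693 in WT). Exons of Yy2 cover 28.4% of the exon bases of Mbtps2, which is uncertain for that reason. Smaller overlaps, of 3.53% to 13.2% of exon bases, touch Scap, Hmgcs1, Tm7sf2, Idi1, Ggps1, Cyp51 and Lss, and these genes are uncertain to that extent.

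The 4 other genes split. Stard4, a cytosolic carrier of cholesterol, had 91.9 and 97.3 CPM in HET IL-6, 86.6 and 95.6 CPM in HET control, 75.2 and 71.6 CPM in WT IL-6 and 115 and 119 CPM in WT control libraries. Aacs, which activates acetoacetate for sterol and fatty acid synthesis, averaged 73.4 ± 3.97 CPM in HET IL-6, 57.3 ± 6.23 CPM in HET control, 35.7 ± 2.64 CPM in WT IL-6 and 70.1 ± 15.0 CPM in WT control macrophages. Both fell with IL-6 in WT, Stard4 at -0.67 ± 0.08 (adjusted p = 5.49e-05) and Aacs at -0.98 ± 0.13 (adjusted p = 1.03e-04). Tmem97, a sterol-responsive membrane protein that binds NPC1, had 57.6 and 54.7 CPM in HET IL-6, 38.9 and 42.0 CPM in HET control, 39.3 and 45.1 CPM in WT IL-6 and 47.8 and 42.1 CPM in WT control libraries. Here the HET IL-6 libraries stood above the other 6, and the WT pairs overlapped. Tmem97 rose by 0.47 ± 0.10 in HET (adjusted p = 0.00324), a call lost without HET control library 1 (adjusted p = 0.0608), and was at -0.09 ± 0.10 in WT (adjusted p = 0.568). Rdh11, a retinal reductase whose gene responds to SREBPs, had 72.1 and 68.3 CPM in HET IL-6, 57.3 and 61.1 CPM in HET control, 59.3 and 60.3 CPM in WT IL-6 and 76.8 and 73.8 CPM in WT control libraries. In each genotype the IL-6 and control libraries were apart, in opposite directions. Rdh11 rose by 0.25 ± 0.08 in HET (adjusted p = 0.0469) and fell by 0.33 ± 0.08 in WT (adjusted p = 0.0102). Of these calls, the one in HET was close to the threshold. The HET call was lost without any single HET library (adjusted p = 0.117 to 0.339), with the replicate block (0.164), with total count scaling (0.0965) and with DESeq2 (0.0608). The WT call was lost without WT IL-6 library 1 (adjusted p = 0.0595), with the replicate block (0.0589) and without the HET libraries numbered 1 or 2 (0.063 and 0.0543).

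**Figure D3:**
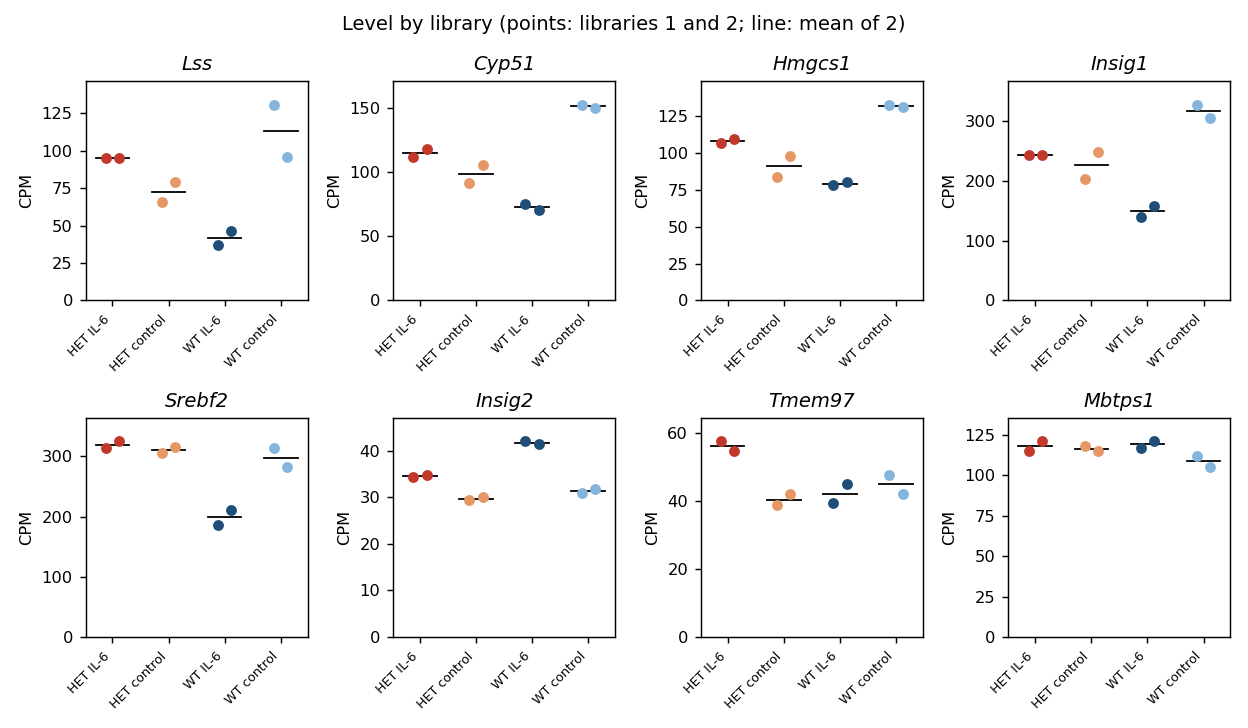
CPM of 8 of the genes in each library (points) with the mean of the 2 libraries of a group (line), from HET IL-6 on the left to WT control on the right; every axis starts at 0. Lss, Cyp51, Hmgcs1 and Insig1 are lowest in WT IL-6 and highest on average in WT control, Insig2 is highest in WT IL-6, and Tmem97 is highest in HET IL-6.

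The genotypes were then set against each other within each treatment. With IL-6, 23 of the 29 genes were higher in HET than in WT, against 13.2% of all tested genes, and 2 were lower, Insig2 and Mbtps2, against 8.80%. In control cultures, 16 of the 29 were lower in HET than in WT, against 2.05% of all tested genes, and 0 were higher, against 2.81%. The median log2 difference of the 29 was 0.57 with IL-6 and -0.39 in control, where the medians of all tested genes were -0.01 and -0.00. In control, 1 gene, Scap, was higher in HET at an unadjusted p under 0.05, and DESeq2 called 0. These comparisons use the same libraries as the IL-6 responses, so they are not separate evidence. Both HET libraries lay above both WT libraries with IL-6 in 25 of the 29, against 32.7% of all tested genes, and below them in 2, against 32.3%. In control they lay below in 21 of the 29, against 25.2%, and above in 2, against 25.3%.

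With IL-6, Mvd differed most between the genotypes (1.48 ± 0.20, adjusted p = 8.83e-04), followed by Mvk (1.29 ± 0.12, adjusted p = 4.50e-05) and Lss (1.20 ± 0.15, adjusted p = 2.95e-04). In each of these genes both HET IL-6 libraries lay above both WT IL-6 libraries. Srebf2 was higher in HET by 0.69 ± 0.09 (adjusted p = 2.21e-04) and Insig1 by 0.71 ± 0.10 (adjusted p = 4.04e-04). Scap, which had no called IL-6 response, was higher in HET by 0.40 ± 0.09 (adjusted p = 0.00931), with 44.0 and 48.5 CPM in HET IL-6 libraries, against 33.0 and 37.4 CPM in WT IL-6 libraries. That call was lost without WT IL-6 library 1 or HET IL-6 library 2 (adjusted p = 0.127 and 0.151) and with an offset for GC content and exon length (0.171). Insig2 was lower in HET, at -0.27 ± 0.08 (adjusted p = 0.0301) and so was Mbtps2, at -0.30 ± 0.10 (adjusted p = 0.0456). Neither was called with that offset (adjusted p = 0.145 for Insig2 and 0.514 for Mbtps2), with the replicate block (0.052 and 0.0733), without any single HET library or without WT IL-6 library 1. Insig2 was also not called without WT IL-6 library 2 (adjusted p = 0.0536) or with no filter (0.0971), and Mbtps2 with total count scaling (0.0503). Ggps1, Ebp, Mbtps1 and Rdh11 did not pass the test with IL-6, and Rdh11 was nearest to it (0.23 ± 0.08, adjusted p = 0.0538).

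In control cultures the lower genes were 13 enzymes, with Insig1, Stard4 and Rdh11. Cyp51 had the smallest adjusted p of these (-0.62 ± 0.09, adjusted p = 0.0031), and Sc5d was at -0.62 ± 0.09 (adjusted p = 0.00366). Srebf2 did not differ by more than its error (0.06 ± 0.09, adjusted p = 0.721), and its sign turned with the offset for GC content and exon length (-0.09, adjusted p = 0.363). Mvk, which differed with IL-6, was at -0.16 ± 0.11 in control (adjusted p = 0.44). The count of 16 was 0 without HET control library 1, while the median of the 29 was -0.30, against -0.39 with all libraries. Calls were lost over all genes in that fit, where 9 were lower and 24 higher in HET, against 281 lower and 385 higher with all libraries. Without HET control library 2, HET IL-6 library 1 or HET IL-6 library 2 in turn, and with the replicate block, 9 of the 29 were lower. Without the HET libraries numbered 2, whose Dnmt3a was not below both WT libraries, 16 of the 29 were higher in HET with IL-6 and 9 were lower in control. Without the HET libraries numbered 1, 21 were higher with IL-6 and 0 lower in control.

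**Figure D4:**
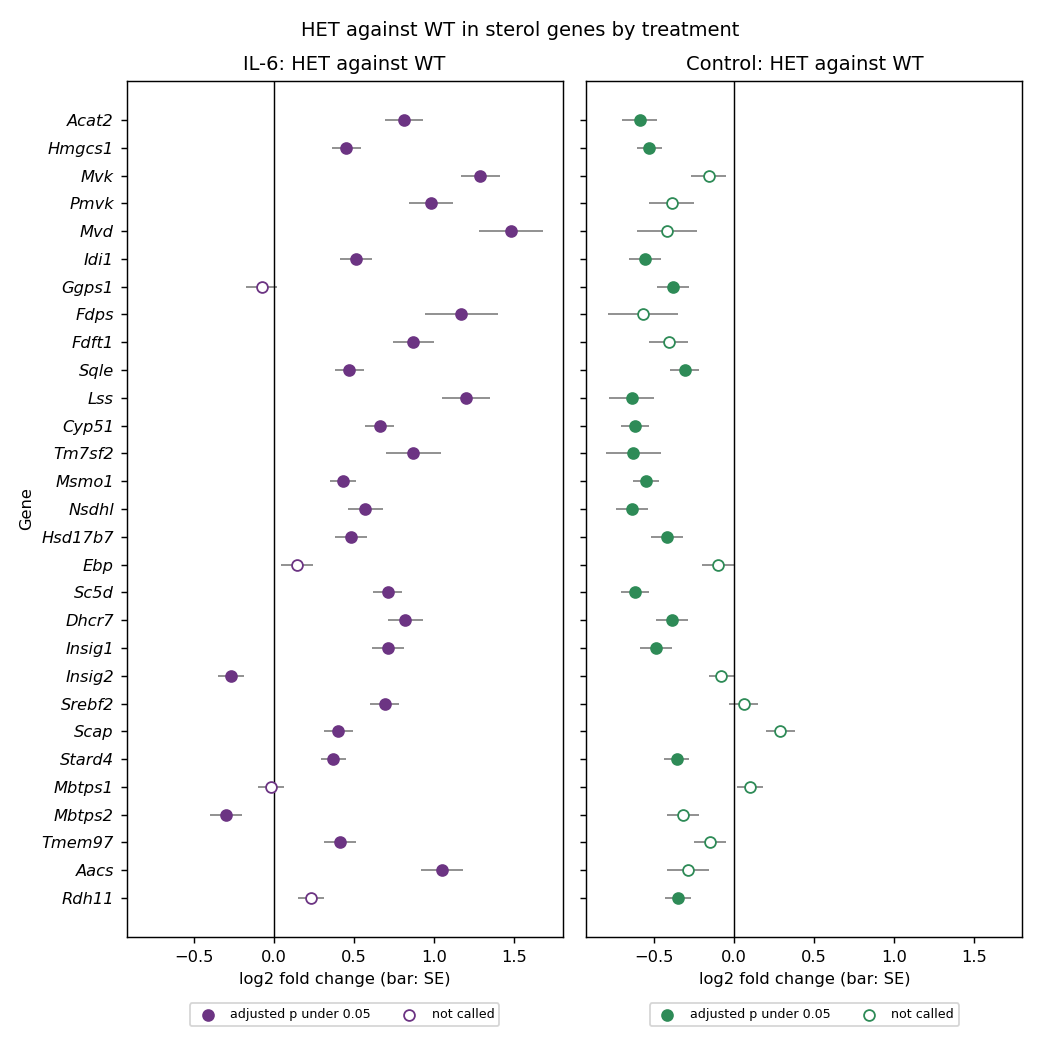
Log2 fold change of HET against WT (points, bars are SE) for the 29 genes with IL-6 (left) and in control (right); filled points passed adjusted p under 0.05. With IL-6, 23 filled points lie right of 0 and 2 left of it, and in control all 16 filled points lie left of 0.

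The difference of the IL-6 responses, HET minus WT, was tested directly as an interaction. It was called above 0 in 23 of the 29 genes, against 4.52% of all tested genes, and below 0 in 0, against 3.60%. Its median was 1.08 for the 29 and 0.02 for all tested genes. Here and below, a count of genes with a difference above or below 0 is a count of calls. At an unadjusted p under 0.05, and with DESeq2, 0 of the 29 passed below 0. Mvd had a difference of 1.90 ± 0.27 (adjusted p = 0.00296), Lss of 1.84 ± 0.21 (adjusted p = 3.46e-04) and Cyp51, with the smallest adjusted p, of 1.28 ± 0.12 (adjusted p = 9.77e-05). Insig1 differed by 1.20 ± 0.14 (adjusted p = 3.05e-04). Srebf2 differed by 0.63 ± 0.12 (adjusted p = 0.00702), and this call was lost without HET control library 1 or HET IL-6 library 2 (adjusted p = 0.058 and 0.0563). The 6 genes that did not pass were Ggps1, Ebp, Insig2, Scap, Mbtps1 and Mbtps2. Insig2, which rose in WT, was at -0.20 ± 0.12 (adjusted p = 0.358), so its responses were not shown to differ between the genotypes. Without the HET libraries numbered 2 the interaction was above 0 in 20 genes, and without those numbered 1 in 17. The calls remained in every fit that left out 1 library in 19 of the 23 genes, in 21 of the 23 WT responses, in 17 of the 25 differences with IL-6, in 0 of the 4 HET responses and in 0 of the 16 differences in control.
Over all genes, the split of the calls moved with several settings. With the offset for GC content and exon length, 46.7% of all calls between HET and WT with IL-6 were higher in HET, against 60.0% without it. Those calls also became fewer, with 663 higher and 756 lower, against 1814 and 1207. Of the calls of the interaction, 44.7% were above 0 with the offset, against 55.7%. They became more, with 785 above 0 and 970 below, against 620 and 494. With both the offset and the replicate block these shares were 47.8% and 45.1%. With total count scaling, 39.0% of all IL-6 calls in HET were higher, against 48.5% as reported, and 34.5% in WT, against 43.2%. With 1 library left out, the share higher in HET with IL-6 ranged over 53.0% to 82.1%, highest without WT IL-6 library 1, and was 76.2% and 76.5% without HET IL-6 library 1 or 2. It was 79.4% without the HET libraries numbered 1 and 78.1% without those numbered 2. In control, the share higher in HET was 57.8% as reported, 72.7% without HET control library 1 and 47.7% without WT control library 1. The interaction was above 0 in 66.0% of its calls without the HET libraries numbered 1. Among the 29 genes, 23 were higher in HET with IL-6 and 23 had an interaction above 0 with the offset too.

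Levels were also compared between genes, per kilobase of exon. On the scale of CPM per kb, Insig1 was the highest of the 29 in every group, with a mean of 78.7 in HET IL-6, 73.0 in HET control, 48.1 in WT IL-6 and 102 in WT control macrophages. Srebf2 was next in HET IL-6, at 44.5, HET control, at 43.2, and WT control, at 41.4, and had 27.6 in WT IL-6, below Tmem97 at 30.7. Tm7sf2 was the lowest in every group, at 2.97 in HET IL-6, 1.96 in HET control, 1.63 in WT IL-6 and 3.03 in WT control. As a share of the WT control mean, the 19 enzymes spanned 67.8% (Nsdhl) to 107% (Mvd) in HET IL-6, 64.1% (Lss and Nsdhl) to 93.4% (Ebp) in HET control and 36.6% (Lss) to 93.4% (Ggps1) in WT IL-6.

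Genes next to the pathway were read in 6 further lists, whose counts stand against 8.87% of all tested genes higher and 9.41% lower with IL-6 in HET, and 7.91% higher and 10.4% lower in WT. In the list of fatty acid synthesis and SREBP1, 6 of 12 genes rose and 0 fell with IL-6 in HET, and 0 rose and 9 fell in WT, with medians of 0.37 in HET and -0.78 in WT. Srebf1, the gene of SREBP1, rose by 0.43 ± 0.10 in HET (adjusted p = 0.00587) and fell in WT (-0.79 ± 0.10, adjusted p = 5.59e-05). Fasn, fatty acid synthase, was at 0.57 ± 0.11 in HET (adjusted p = 0.00162) and -0.77 ± 0.11 in WT (adjusted p = 1.47e-04). Fads2, a fatty acid desaturase, fell by 1.82 ± 0.14 in WT (adjusted p = 2.00e-06). The interaction was called above 0 in 9 of these 12 genes, against 4.52% of all tested genes, and below 0 in 0, against 3.60%.
Of the list of LXR targets and efflux genes, 9 of 11 passed the filter. The list also holds genes that make oxysterols, Ch25h and Cyp27a1, and the LXR genes Nr1h2 and Nr1h3, so its counts are not those of LXR targets alone. With IL-6 4 of the 9 rose and 0 fell in HET, and 1 rose and 6 fell in WT, with medians of 0.22 in HET and -0.57 in WT. Abca1, a cholesterol exporter, was at 0.53 ± 0.13 in HET (adjusted p = 0.0148) and -0.86 ± 0.14 in WT (adjusted p = 6.16e-04). Abcg1, its partner in export, rose by 0.60 ± 0.17 in HET (adjusted p = 0.0324) and was at -1.15 ± 0.17 in WT (adjusted p = 9.17e-04). Cyp27a1, which makes an oxysterol, fell by 1.26 ± 0.19 in WT (adjusted p = 2.67e-04) and was at -0.13 ± 0.17 in HET (adjusted p = 0.677). The interaction was called above 0 in 6 of the 9 genes and below 0 in 0. Ch25h, which makes an oxysterol that suppresses SREBP processing, rose in both genotypes, by 2.31 ± 0.12 in HET (adjusted p = 1.16e-08) and 2.02 ± 0.12 in WT (adjusted p = 7.39e-08). It was among the 4 genes of the list that rose in HET and was the 1 that rose in WT.
Among 15 tested genes of the list of other sterol genes and uptake, 4 rose and 1 fell with IL-6 in HET, and 1 rose and 7 fell in WT. Acss2, which makes acetyl-CoA from acetate, fell by 2.29 ± 0.19 in WT (adjusted p = 1.35e-06). Among lists of later use of the pathway's products, of 15 isoprenoid-using genes 2 rose and 0 fell in HET and 1 rose and 1 fell in WT, and of 14 genes of trafficking and esterification 3 rose and 1 fell in HET and 1 rose and 3 fell in WT. The isoprenoid counts were near the shares of all tested genes. Of 11 genes of sterol-regulated degradation, 3 rose in HET and 2 in WT and 0 fell in either. Rnf145, a ubiquitin ligase of this list, rose by the same log2 value of 0.37 ± 0.09 in HET (adjusted p = 0.0126) and in WT (adjusted p = 0.0117).

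**Figure D5:**
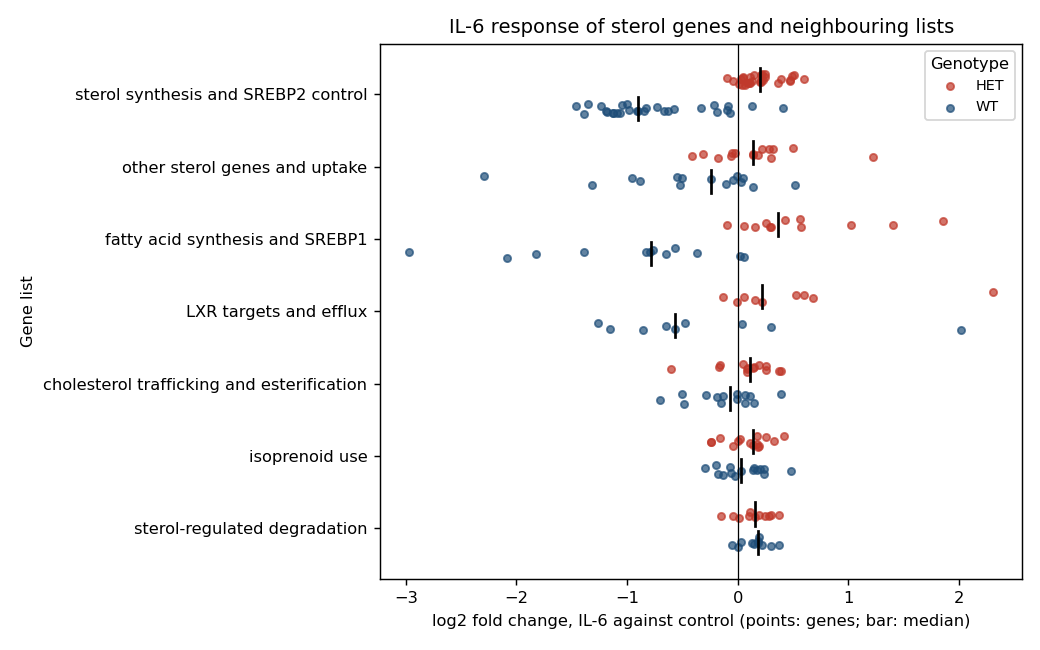
Log2 fold change with IL-6 against control of each gene (points) and the median of each list (bars), for the 29 sterol genes and the 6 further lists, HET above WT within each list. For the 29 genes the medians are 0.20 in HET and -0.90 in WT, and for fatty acid synthesis and SREBP1 they are 0.37 and -0.78.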

How the data were processed

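RNA of 8 libraries was sequenced from a stranded kit for polyadenylated RNA, per the labels' protocols. The authors deposited raw gene counts, 1 table of 55376 genes and 8 library columns, matched to the libraries by column name. The submitters' processing notes list the build mm10 and the tools featureCounts 1.6.2, SAMtools 1.9, STAR 2.7.9a and fastp 0.12.4. Neither the annotation nor the strand setting of the counting is given in the sources used here, so genes whose exons overlap those of another gene are uncertain. Gene coordinates in the table matched GENCODE M21 for 99.4% of genes.

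From the counts, edgeR 4.0.16 in R 4.3.3 fitted all 8 libraries in 4 groups (TMM, filterByExpr with a minimum count of 10, robust quasi-likelihood, 4 residual degrees of freedom). The same fit was run on simulated counts with independent libraries and 1 spread per gene. That run cannot check the p-values where groups differ in spread or libraries share a mouse. The contrasts tested were IL-6 against control in HET and in WT, HET against WT with IL-6 and in control, and the difference of the IL-6 responses. The 2 libraries of a group differed by more than sampling noise in all groups, and more in WT than in HET. The chi-square per gene was 6.75 in HET IL-6, 6.66 in HET control, 13.3 in WT IL-6 and 19.2 in WT control. The median size of the log2 difference was 0.08, 0.10, 0.15 and 0.17 in the same order. The fit gave each gene 1 spread for all 4 groups, and the effect of this on the calls of each genotype was not tested. Alternatives were DESeq2 1.42.0 and its size factors, total count scaling, no filter, an offset for GC content and exon length (lowess span 0.3), a replicate block and left-out libraries. The replicate block was 1 fit for the IL-6 comparisons (2 residual degrees of freedom) and another for HET against WT (3 residual degrees of freedom). In the latter, a shared number joins libraries of different genotypes, which cannot share a mouse, and the labels give no basis for it. The 29 genes and the lists were chosen with earlier results of these data known. Genes beside the 29 were named by a rule: in each list and comparison, up to 4 of those with the smallest p.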

Additional observations from a re-analysis of the deposited data

Results flagged for a closer look

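The response of the sterol genes to IL-6 differed between the genotypes by a test of the difference itself in 23 of the 29 genes, and in each the difference, HET minus WT on the log2 scale, was above 0. In the mevalonate steps it was 1.40 for Acat2, 0.99 for Hmgcs1, 1.45 for Mvk, 1.37 for Pmvk, 1.90 for Mvd and 1.08 for Idi1. At the branch point Fdps had 1.74. From squalene onward it was 1.28 for Fdft1, 0.79 for Sqle, 1.84 for Lss, 1.28 for Cyp51, 1.51 for Tm7sf2, 0.98 for Msmo1, 1.21 for Nsdhl, 0.89 for Hsd17b7, 1.34 for Sc5d and 1.20 for Dhcr7. Among the control genes Insig1 had 1.20 and Srebf2 0.63. Of the remaining genes Stard4 had 0.73, Tmem97 0.57, Aacs 1.34 and Rdh11 0.58. Each passed an adjusted p under 0.05 in edgeR's interaction test over 13721 genes. The 4 calls lost in at least 1 fit that left out a library were Fdps, Srebf2, Tmem97 and Rdh11.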

How the results depend on the processing

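Of the 29 genes, 22 fell with IL-6 in WT with DESeq2, its size factors, total count scaling, no filter on low counts or an offset for GC content and exon length, and 23 had a difference of responses above 0 in each. Where 1 library was left out, the number that fell in WT ranged over 20 to 23, those higher in HET with IL-6 over 18 to 24 and those with a difference above 0 over 20 to 23. The count that rose in HET was 4 as reported, 0 to 8 with a library left out, 9 with no filter, 8 with the offset, 7 with the replicate block and the offset, and 0 or 2 without the HET libraries numbered 1 or 2. Lower genes in HET control against WT control numbered 16, 0 to 17 with a library left out, 21 with no filter, 13 with total count scaling, 17 with the offset, 9 with the replicate block, and 0 or 9 without the HET libraries numbered 1 or 2. Lower genes in HET with IL-6 numbered 2, 0 to 2 with a library left out, 1 with total count scaling or no filter, and 0 with the offset, the replicate block, both together or without the HET libraries numbered 1 or 2. The cause of these shifts was not tested.

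The labels do not say that a number marks a mouse. Deviations of same-numbered libraries correlated across 13721 genes, which are not independent replicates, by -0.21 between the WT treatments, 0.19 between the HET treatments, -0.06 between control cultures and 0.02 between IL-6 cultures, and with 2 numbers this settles no pairing, so the libraries are taken to share only a number. With the replicate block, 3 of the 29 genes rose in HET, 21 fell in WT, and 21 had a difference above 0. With the numbers crossed in WT, a pairing chosen after seeing the data, 16 rose in HET, and 2 rose and 24 fell in WT. Calls grew over all genes in that fit too. In HET, 2199 of all tested genes were higher, against 1217 as reported. In WT, 2064 were higher and 2379 lower, against 1086 and 1429. The larger count of 16 is thus not particular to the 29 genes.

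Values that changed sign belonged to genes not called in that comparison. With 1 library left out, the log2 IL-6 response in HET ranged over -0.03 to 0.09 for Idi1, -0.05 to 0.28 for Fdft1, -0.03 to 0.21 for Nsdhl, -0.05 to 0.19 for Hsd17b7, -0.03 to 0.26 for Insig1, -0.01 to 0.13 for Stard4 and -0.03 to 0.06 for Mbtps1. In WT it ranged over -0.21 to 0.09 for Mbtps2 and -0.19 to 0.00 for Tmem97. HET against WT in control ranged over -0.23 to 0.05 for Ebp and -0.01 to 0.14 for Srebf2, and with IL-6 over -0.07 to 0.01 for Mbtps1. The difference of responses of Mbtps2 ranged over -0.13 to 0.17. Without the HET libraries numbered 1, the HET response was -0.02 for Idi1, -0.03 for Fdft1, -0.03 for Nsdhl, -0.02 for Insig1 and 0.01 for Scap, and Mbtps1 in HET against WT with IL-6 was 0.03. Without those numbered 2, Mbtps1 was at -0.04 in the HET response, and Scap at -0.00 in the difference of responses. With total count scaling the HET response was -0.01 for Idi1 and -0.03 for Mbtps1. With no filter Mbtps1 was at 0.01 in HET against WT with IL-6. With the offset, with or without the replicate block, Srebf2 was at -0.09 in HET against WT in control, Ggps1 at 0.12 in HET against WT with IL-6 and Scap at -0.01 in the difference of responses. The cause was not tested. With 2 libraries a group, each gene has only 4 residual degrees of freedom. The quasi-likelihood test also draws each gene's spread toward a trend over all tested genes. The small p-values rest in part on that shared spread.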
